A study of Homo sapiens with 5 samples.

Results

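The mRNAs of 10 SR splicing factors were followed through RNA immunoprecipitation of PSF: SRSF1, SRSF2, SRSF3, SRSF4, SRSF5, SRSF6, SRSF7, SRSF11, TRA2A and TRA2B. They were chosen by gene symbol, and all 10 were found among the 25702 genes of the deposited table. LTAD cells, a human prostate cancer line, were kept in phenol red-free RPMI1640 with charcoal/dextran-treated serum, which holds little androgen, in every group. The groups were PSF-RIP from cells given No.10-3, a small molecule known only by that code, at 5 µM (2 libraries, replicates 1 and 2), PSF-RIP from cells given the DMSO vehicle (1 library), and input RNA (2 libraries, 1 of each treatment by the labels). The titles name no control immunoprecipitation, and no label says whether the 2 No.10-3 libraries came from separate cultures, so p-values measure only the spread between these libraries, which may be technical.

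The 2 input columns are not named for a treatment, so both served as 1 reference. Input A is the column without a number and input B the column numbered 2. The 2 columns taken as No.10-3 PSF-RIP carry the compound's name without PSF, and were assigned because the other 2 candidate columns are named input. The spread between the inputs therefore holds the treatment as well as the error.

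SR proteins are nuclear RNA-binding proteins with RNA recognition motifs and a tail rich in arginine and serine. They bind enhancer sequences in exons and recruit the spliceosome. Their own genes carry poison exons, whose inclusion brings in a premature stop codon and sends the mRNA to nonsense-mediated decay, and introns that can be retained in the nucleus, and many SR proteins limit their own amount in this way. PSF, the product of SFPQ, belongs to the DBHS proteins, which bind RNA in the nucleus and help to build paraspeckles. Counts here are per gene, so a productive mRNA and an isoform with a poison exon or a retained intron were counted together.

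The inputs and the immunoprecipitates held different kinds of RNA, and this sets the scale of every PSF-RIP over input value. Library totals ran from 1519362 to 4010376 counts. Nuclear protein-coding genes took 73.6% and 82.1% of counts in No.10-3 PSF-RIP and 76.1% in vehicle PSF-RIP, against 16.4% in input A and 15.9% in input B. Small structured noncoding RNAs, among them 7SK and the RNA of the signal recognition particle, took 11.2% and 3.60% in No.10-3 PSF-RIP and 13.6% in vehicle PSF-RIP, against 56.2% and 58.7% in the inputs. Mitochondrially encoded genes took 12.2% and 9.49% in No.10-3 PSF-RIP, 6.91% in vehicle PSF-RIP, and 26.3% and 24.4% in the inputs. The prostate luminal markers (KLK3 and others) had counts in every library for 10 of 10 genes, while 2 of 3 basal and 2 of 3 immune markers were at 0 in all 5 libraries. Of 6 stromal markers 1 was at 0 in all libraries, and their summed level was 48.0 and 46.9 CPM in No.10-3 PSF-RIP and 62.6 CPM in vehicle PSF-RIP, against 27.7 and 26.6 CPM in the inputs. Of 3 endothelial markers 1 was at 0 in all libraries, and their sum ran from 2.88 to 8.13 CPM in PSF-RIP, against 3.22 and 0.888 CPM in the inputs. Most of the stromal sum was COL1A1 and VIM. COL1A1 had a mean of 26.4 CPM in No.10-3 PSF-RIP, 39.05 CPM in vehicle PSF-RIP and a mean of 7.49 CPM in the inputs. VIM stood at 19.1, 23.1 and 19.7 CPM in the same order. All libraries are of 1 cell line, so these levels describe RNA in the libraries and do not count cells. The part of these markers in the results below was not tested.

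The 10 mRNAs together took 0.137% and 0.172% of all counts in No.10-3 PSF-RIP and 0.221% in vehicle PSF-RIP, against 0.0292% in input A and 0.0233% in input B. As a share of nuclear protein-coding counts, the same sums were 0.186% and 0.210% in No.10-3 PSF-RIP and 0.291% in vehicle PSF-RIP, against 0.178% and 0.146% in the inputs. All 3 PSF-RIP libraries lay above both inputs on each measure. The gap to the inputs was far smaller among mRNA counts, where vehicle PSF-RIP stood highest and No.10-3 replicate 1 lay close to input A.

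**Figure D1:**
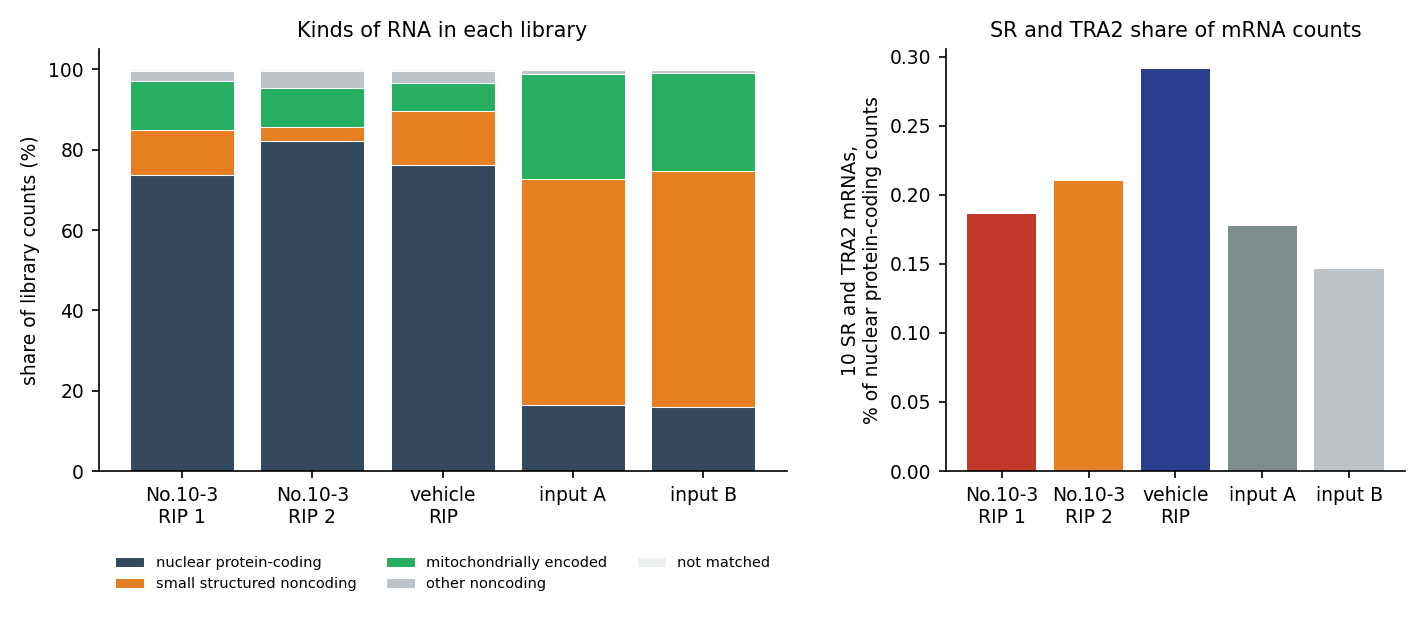
Left, the share of each library's counts (%) by kind of RNA; right, the counts of the 10 SR and TRA2 mRNAs as a share (%) of nuclear protein-coding counts, 1 bar per library. Protein-coding genes took 73.6% to 82.1% of the PSF-RIP libraries and 15.9% to 16.4% of the inputs, and the SR and TRA2 share was highest in vehicle PSF-RIP at 0.291%.

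Levels are given as CPM, the count relative to library depth after TMM scaling, which lines libraries up on the bulk of their genes. On this scale the median log2 change of PSF-RIP over input was 0.05 over all 13321 tested genes and 0.10 over the 11806 nuclear protein-coding genes among them. Scaling by library totals alone moved the median of all genes to 2.38, and all 10 mRNAs then passed the test as higher in PSF-RIP. The values below are therefore relative to the other mRNAs, and do not say how much of each mRNA PSF recovered. All 10 mRNAs passed the filter of a mean of 1 CPM.

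SRSF4, SRSF5 and SRSF6 share a pair of RNA recognition motifs and a long arginine-serine tail, and all 3 have known poison exons. SRSF5 had 263 and 769 counts in No.10-3 PSF-RIP and 682 in vehicle PSF-RIP, against 110 in input A and 75 in input B. That is 97.2 and 111 CPM in No.10-3 PSF-RIP and 162 CPM in vehicle PSF-RIP, against 70.7 and 66.6 CPM in the inputs. Each PSF-RIP library lay above both inputs, and vehicle lay clearly above both No.10-3 libraries.

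SRSF6, the most abundant of the 10 by count, stood at 252 and 236 CPM in No.10-3 PSF-RIP and 380 CPM in vehicle PSF-RIP, against 209 and 165 CPM in the inputs. Again all PSF-RIP libraries lay above both inputs, with the No.10-3 pair close to input A. SRSF4 stood at 34.0 and 39.4 CPM in No.10-3 PSF-RIP and 38.8 CPM in vehicle PSF-RIP, against 22.5 and 28.4 CPM in the inputs. For this mRNA the 3 PSF-RIP libraries lay close together, and its input values rest on 35 and 32 counts.

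SRSF1 also has a pair of RNA recognition motifs and is the founding factor of the family. It stood at 77.2 and 102 CPM in No.10-3 PSF-RIP and 113 CPM in vehicle PSF-RIP, against 112 and 83.5 CPM in the inputs. The groups overlapped, and vehicle PSF-RIP was level with input A.

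SRSF2, SRSF3 and SRSF7 have a single RNA recognition motif, and SRSF3 and SRSF7 also serve as adaptors for mRNA export. SRSF2 stood at 93.8 and 83.5 CPM in No.10-3 PSF-RIP and 151 CPM in vehicle PSF-RIP, against 90.7 and 57.7 CPM in the inputs. The vehicle library lay above both inputs, and the No.10-3 pair fell on either side of input A. SRSF3 stood at 73.2 and 73.3 CPM in No.10-3 PSF-RIP and 97.9 CPM in vehicle PSF-RIP, against 89.4 and 79.9 CPM in the inputs. Vehicle PSF-RIP was thus the highest of the 5 libraries and the No.10-3 pair the lowest. SRSF7 stood at 47.3 and 46.7 CPM in No.10-3 PSF-RIP and 66.2 CPM in vehicle PSF-RIP, against 42.4 and 41.7 CPM in the inputs, so that it lay above both inputs in each PSF-RIP library.

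SRSF11 is a more distant member of the family. It stood at 43.2 CPM in No.10-3 replicate 1, 79.7 CPM in No.10-3 replicate 2 and 73.8 CPM in vehicle PSF-RIP, against 60.5 and 44.4 CPM in the inputs. Its No.10-3 replicates were the lowest and the highest of the 5 libraries.

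TRA2A and TRA2B are paralogs of the fly splicing regulator Transformer-2, and act with SR proteins on exonic enhancers. TRA2A, the lowest of the 10 by count, stood at 17.0 and 22.5 CPM in No.10-3 PSF-RIP and 27.4 CPM in vehicle PSF-RIP, against 16.7 and 23.1 CPM in the inputs, each resting on 26 input counts. TRA2B stood at 33.3 and 41.8 CPM in No.10-3 PSF-RIP and 38.8 CPM in vehicle PSF-RIP, against 39.2 and 47.1 CPM in the inputs. The groups overlapped for both mRNAs, and TRA2B was highest in input B.

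**Figure D2:**
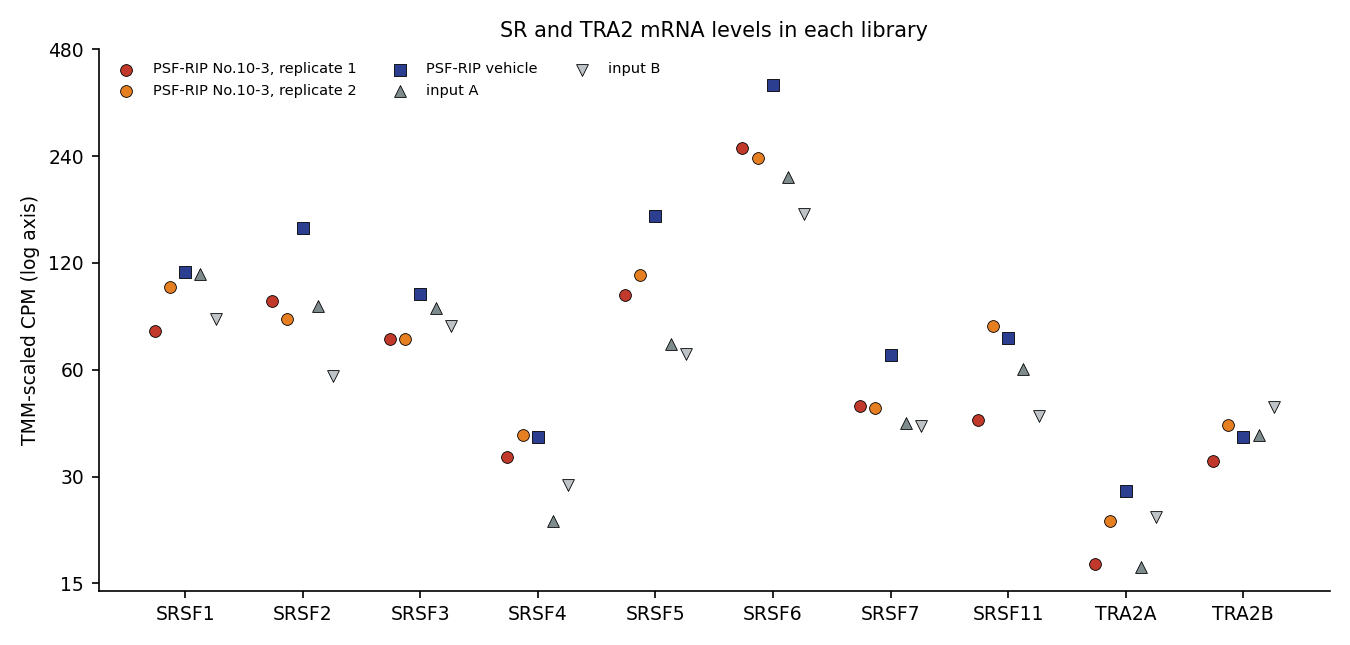
TMM-scaled CPM (log axis) of the 10 SR and TRA2 mRNAs, 1 point per library: 2 No.10-3 PSF-RIP, 1 vehicle PSF-RIP and 2 inputs. Vehicle PSF-RIP is the highest point for SRSF2 (151 CPM), SRSF5 (162 CPM) and SRSF6 (380 CPM), while SRSF11 spans 43.2 to 79.7 CPM between the No.10-3 replicates.

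Between genes, levels were compared per kilobase of the deposited gene length. By the median of the 3 PSF-RIP libraries, SRSF5 at 67.2 CPM per kilobase (range 58.9 to 98.4) and SRSF6 at 62.9 (58.9 to 94.7) led and overlapped each other, but no other member. SRSF2 followed at 32.6 (29.0 to 52.3), above the whole range of SRSF11 at 26.4 (15.5 to 28.5), and overlapping SRSF3 at 23.3 (23.3 to 31.1). SRSF7, SRSF1, SRSF4 and TRA2A ran from 19.0 down to 12.2 CPM per kilobase with neighbours that overlapped, and TRA2B was last at 9.05 (7.75 to 9.75), overlapping TRA2A (9.23 to 14.9). In the inputs SRSF6 (mean 46.6 CPM per kilobase) stood above SRSF5 (41.6), with overlapping ranges, then SRSF3 (26.9) and SRSF2 (25.7). TRA2A (10.8), TRA2B (10.1) and SRSF4 (10.1) were lowest there.

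The first comparison asks which of these mRNAs were over-represented in PSF-RIP relative to input, with both treatments weighted equally on each side. SRSF5 had the highest log2 change of the 10, at 0.92 (SE 0.37), or 1.89-fold, followed by SRSF6 at 0.70 (SE 0.39), SRSF2 at 0.63 (SE 0.37) and SRSF4 at 0.58 (SE 0.39). SRSF7 stood at 0.41, SRSF11 at 0.36 and TRA2A at 0.24. SRSF1 at 0.05, SRSF3 at -0.0015 and TRA2B at -0.17 were level with or below the typical protein-coding gene. The median of the 10 was 0.38, against 0.05 over all tested genes. Without the vehicle library SRSF5 stood at 0.59, SRSF4 at 0.53, SRSF6 at 0.37, SRSF2 at 0.24, SRSF7 at 0.15, SRSF11 at 0.22 and TRA2A at 0.0022, none of them past the threshold.

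By edgeR's quasi-likelihood test with Benjamini-Hochberg adjustment, 0 of the 10 passed, where 12% of tested genes were called higher and 13.6% lower. The smallest adjusted p among the 10 was that of SRSF5 (0.0630), which was also the only member at an unadjusted p under 0.05, and DESeq2 called 0 of the 10. All 3 PSF-RIP libraries exceeded both inputs for 4 of the 10 (SRSF4, SRSF5, SRSF6 and SRSF7), against 30.1% of tested genes, a share close enough that the 4 are no result about the family. For 0 of the 10 did all 3 lie below both inputs, against 25.1% of tested genes. SRSF5 and SRSF6 did pass when No.10-3 replicate 1 was left out (adjusted p of 0.00322 and 0.0213 by edgeR) or No.10-3 replicate 2 (0.00946 and 0.0144), fits in which the inputs alone give the spread. With the trend over gene length removed from each library, the median of the 10 was 0.17, and in the separate comparisons below 0.39 with vehicle and -0.015 with No.10-3.

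With vehicle, set against the same 2 inputs, SRSF5 rose by 1.24 on the log2 scale (SE 0.46, 2.36-fold, adjusted p = 0.0485 by edgeR's quasi-likelihood test), the 1 member of 10 past the threshold, where 10.1% of tested genes were called higher and 10.4% lower. SRSF6 stood at 1.02 (SE 0.48, adjusted p = 0.124 by edgeR) and SRSF2 at 1.02 (SE 0.46, adjusted p = 0.110). The others ran from -0.15 for TRA2B to 0.65 for SRSF7. The median of the 10 was 0.55, against 0.03 over all tested genes, and 9 of 10 lay above the protein-coding median. This rests on 1 vehicle library, assumed to vary like the others. The SRSF5 call was lost under DESeq2 (adjusted p = 0.0586), with upper-quartile scaling (0.0538), with a filter of a mean of 5 CPM (0.0557), without input A (0.252), without input B (0.331) and with the inputs summed into 1 library (0.297), while leaving out No.10-3 replicate 1 or 2 gave 3 members called, SRSF2, SRSF5 and SRSF6.

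With No.10-3, set against those inputs too, 0 of the 10 passed edgeR's test, where 5.03% of tested genes were called higher and 6.51% lower, and 0 of the 10 had an unadjusted p under 0.05 by edgeR or a call by DESeq2. SRSF5 stood at 0.60 (SE 0.39, adjusted p = 0.311 by edgeR), SRSF4 at 0.54 (SE 0.41), SRSF6 at 0.38 and SRSF2 at 0.25. SRSF3 at -0.21, TRA2B at -0.19 and SRSF1 at -0.12 were below 0. The median of the 10 was 0.20, against 0.08 over all tested genes and 0.15 over protein-coding genes. This comparison and that of vehicle share their inputs, so the likeness of their orders is no independent support.

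**Figure D3:**
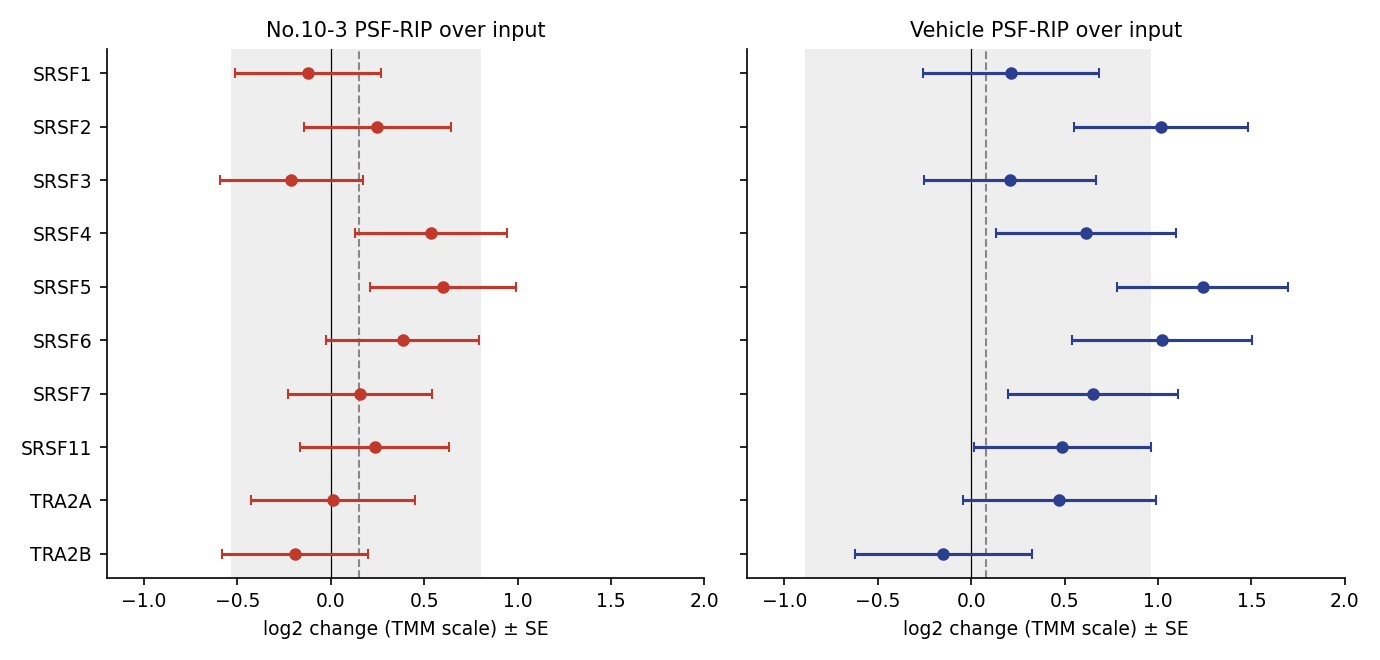
Log2 change of PSF-RIP over the 2 inputs (points) with its SE (bars) for No.10-3 (left, 2 libraries) and vehicle (right, 1 library). The dashed line is the median and the grey band the middle 50% of tested nuclear protein-coding genes; SRSF5 lies at 0.60 with No.10-3 and 1.24 with vehicle, and TRA2B at -0.19 and -0.15.

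The share of each mRNA among the counts of the 10 does not depend on the scaling. SRSF5 took 12.6% and 13.3% in No.10-3 PSF-RIP and 14.1% in vehicle PSF-RIP, against 9.39% and 10.45% in the inputs. Its 95% Wilson interval with vehicle (13.2% to 15.1%) lay above that of input A (7.85% to 11.2%) and of input B (8.41% to 12.9%), and those of No.10-3 replicate 1 (11.3% to 14.1%) and replicate 2 (12.4% to 14.2%) lay above that of input A alone. SRSF6 took 32.8% and 28.3% in No.10-3 PSF-RIP and 33.1% in vehicle PSF-RIP, against 27.8% and 25.9% in the inputs. Its intervals with vehicle (31.8% to 34.4%) and in No.10-3 replicate 1 (30.9% to 34.9%) lay above those of input A (25.3% to 30.4%) and input B (22.8% to 29.2%), while that of No.10-3 replicate 2 (27.1% to 29.4%) overlapped both. SRSF3 had lower shares in PSF-RIP, with 9.52% and 8.76% in No.10-3 PSF-RIP and 8.51% in vehicle PSF-RIP, against 11.9% and 12.5% in the inputs. Its intervals with vehicle (7.76% to 9.33%) and in No.10-3 replicate 2 (8.06% to 9.51%) lay below those of input A (10.1% to 13.9%) and input B (10.3% to 15.2%), and that of No.10-3 replicate 1 (8.33% to 10.9%) overlapped both. SRSF1 took 10.05% and 12.2% in No.10-3 PSF-RIP and 9.86% in vehicle PSF-RIP, against 14.9% and 13.1% in the inputs. TRA2B took 4.33% and 5.00% in No.10-3 PSF-RIP and 3.38% in vehicle PSF-RIP, against 5.21% and 7.38% in the inputs. The SRSF1 interval with vehicle (9.05% to 10.7%) lay below those of input A (12.9% to 17.0%) and input B (10.8% to 15.8%). That of TRA2B with vehicle (2.90% to 3.92%) also lay below input A (4.08% to 6.635%) and input B (5.69% to 9.53%). Each No.10-3 interval of SRSF1 and TRA2B overlapped that of at least 1 input. For SRSF2, SRSF4, SRSF7, SRSF11 and TRA2A no PSF-RIP interval lay clear of those of both inputs. The shares are tied to each other, so a higher share of 1 mRNA lowers those of the others. On the TMM scale SRSF3 stood at -0.0015 in PSF-RIP over input. All the intervals cover counting error only.

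The second comparison asks whether No.10-3 altered the amount of these mRNAs in PSF-RIP, and was fitted on the 3 PSF-RIP libraries alone. All 10 mRNAs had a negative log2 change, from -0.05 for TRA2B to -0.77 for SRSF2, with a median of -0.44 against 0.04 over all 13766 tested genes. SRSF2 stood at -0.77 (SE 0.58), SRSF5 at -0.65 (SE 0.59) and SRSF6 at -0.64 (SE 0.65), folds of 0.587, 0.639 and 0.641. SRSF7 (-0.50), TRA2A (-0.47), SRSF3 (-0.42), SRSF1 (-0.34) and SRSF11 (-0.26) followed, and SRSF4 (-0.08) lay close to 0. None of these values passed the test, and all 10 values share the 1 vehicle library, so their common sign is not 10 observations.

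By edgeR's quasi-likelihood test 0 of the 10 passed (adjusted p = 0.998 for each), as 0% of all tested genes did in either direction, and 0 of the 10 had an unadjusted p under 0.05. Of all tested genes, 563 had an unadjusted p under 0.05 by edgeR and 123 by DESeq2, which also called 0. Both No.10-3 libraries lay below vehicle for 7 of the 10 mRNAs, against 32.6% of tested genes, and both lay above it for 0 of the 10, against 33.1%. Each of these counts rests on the 1 vehicle library.

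The No.10-3 replicates were near each other for some of these mRNAs and far apart for others. SRSF2 stood at -0.68 from vehicle in replicate 1 and -0.86 in replicate 2, SRSF6 at -0.59 and -0.69, SRSF5 at -0.74 and -0.56, and SRSF7 at -0.48 and -0.51. SRSF3 stood at -0.42 and -0.43, the closest pair. SRSF11 stood at -0.77 in replicate 1 and 0.10 in replicate 2, SRSF4 at -0.19 and 0.01, and TRA2B at -0.22 and 0.10, so that these 3 had no common direction. TRA2A stood at -0.69 and -0.29, and SRSF1 at -0.55 and -0.16. The replicates also differed in small structured noncoding RNAs, at 11.2% in replicate 1 and 3.60% in replicate 2 against 13.6% with vehicle, and in mitochondrially encoded RNAs, at 12.2% and 9.49% against 6.91% with vehicle. With mitochondrially encoded genes and the genes that RefSeq classes as snoRNAs or snRNAs left out, the median of the 10 was -0.45. That setting kept the other small structured noncoding RNAs. Among these RMRP, the RNA of RNase MRP, took 4.37% in replicate 1, 0.650% in replicate 2 and 4.53% with vehicle.

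**Figure D4:**
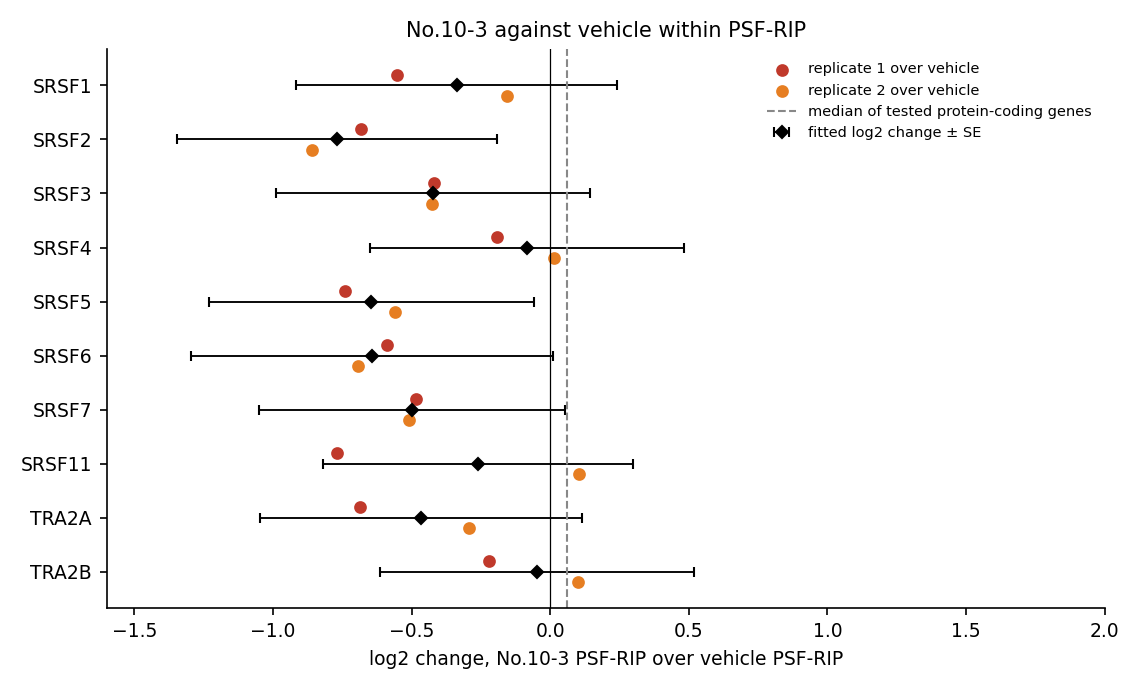
Log2 change of No.10-3 PSF-RIP over vehicle PSF-RIP for the 10 mRNAs: replicate 1 (red), replicate 2 (orange) and the fitted value (black diamond) with its SE. The dashed line is the median of tested protein-coding genes, 0.06; SRSF2, SRSF5 and SRSF6 have both replicates at -0.56 or lower, and SRSF11 lies at -0.77 and 0.10.

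The amount of an mRNA in the cells and its recovery with PSF cannot be told apart in these values, and the inputs give only the size of the difference in the cells, since their columns are not named for a treatment. The unsigned log2 gap between them was smallest for SRSF7 (0.02), SRSF5 (0.09) and SRSF3 (0.16), and largest for SRSF2 (0.65), with a median of 0.33 over the 10 against 0.41 over all tested genes. Taking the PSF-RIP difference (mean log2 CPM of No.10-3 minus vehicle) and subtracting the gap with either sign leaves SRSF7 between -0.51 and -0.46, SRSF5 between -0.73 and -0.56, SRSF3 between -0.58 and -0.255, SRSF6 between -0.98 and -0.30, SRSF2 between -1.41 and -0.12, and TRA2A between -0.92 and -0.02. These 6 of 10 were thus below 0 whichever input was which, though TRA2A reached -0.02 and rests on 26 counts in each input. The sign of the other 4 (SRSF1, SRSF4, SRSF11 and TRA2B) depends on which input is which. The same share over all tested genes was not computed, and all 10 values use the 1 vehicle library. The 6 are thus no result about the family. Each gap is the difference of 1 library from 1 other, so this is a description with no test.

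Other genes of the pathway were taken from lists. Of the other SR proteins, SRSF12 had 0 counts in all 5 libraries, and 0 of the 3 tested passed in PSF-RIP over input. SRSF8 had 38.1 and 49.2 CPM in No.10-3 PSF-RIP and 39.3 CPM in vehicle PSF-RIP, against 81.0 and 76.4 CPM in the inputs, which put it at -0.92 on the log2 scale with an SE of 0.36, just short of the threshold (adjusted p = 0.0501 by edgeR). Its PSF-RIP libraries all lay below both inputs. SRSF9 stood at -0.15 and SRSF10 at -0.01.

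Of 25 SR-related proteins, which carry arginine-serine stretches but are not core SR factors, 6 were higher in PSF-RIP than input and 0 lower, where 12% of all tested genes were called higher and 13.6% lower, with a median of 0.51. With No.10-3 alone 2 of the 25 passed, SCAF1 and SNRNP70, where 5.03% of tested genes were called higher. SCAF1 rose by 2.04 (SE 0.42, adjusted p = 6.48e-04 by edgeR), at 55.8 and 44.7 CPM in No.10-3 PSF-RIP and 52.4 CPM in vehicle PSF-RIP, against 14.8 and 9.77 CPM in the inputs. SNRNP70, the U1 snRNP protein, rose by 1.58 (SE 0.39), at 54.7 and 49.9 CPM in No.10-3 PSF-RIP and 80.0 CPM in vehicle PSF-RIP, against 21.9 and 21.3 CPM in the inputs. SFSWAP (1.66), ACIN1 (1.22), SRRM2 (1.09) and U2AF2 (1.03), the large subunit of the factor that binds the polypyrimidine tract, also passed. Their adjusted p by edgeR were 0.0112, 0.0189, 0.0438 and 0.0375 in that order, the last 2 close to the threshold. Whether calls of listed genes hold under other scalings, filters or left-out libraries is not given here. Input values rest on 23 and 11 counts for SCAF1 and on 13 and 6 for SFSWAP. These 6 genes were named because they passed, so their shifts are large by selection and cannot be set against those of the 10 SR and TRA2 mRNAs. The whole list of 25 ran from -0.78 for SCAF11 to 2.04, with 19 values above 0 and 6 below.

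Of the kinases that phosphorylate SR proteins and their import factor, 9 of 10 were tested, and CLK3 (1.28, adjusted p = 0.0200 by edgeR) and CLK2 (1.08, adjusted p = 0.0370) were higher in PSF-RIP, with 0 lower, against the same 12% and 13.6% of all tested genes. With No.10-3 alone 0 of the 9 passed, with CLK3 at 0.98 (adjusted p = 0.124 by edgeR) and CLK2 at 0.82 (adjusted p = 0.178), and 5.03% of tested genes were called higher. CLK1 stood at 0.80 and SRPK1 at -0.60 without passing. Of 10 nonsense-mediated decay factors, 3 were higher and 0 lower, where 12% of all tested genes were called higher and 13.6% lower, and with No.10-3 alone only UPF1 of the 10 passed. UPF1, the helicase at the centre of that pathway, rose by 1.59 (SE 0.40, adjusted p = 0.00355 by edgeR), at 65.8 and 47.0 CPM in No.10-3 PSF-RIP and 68.3 CPM in vehicle PSF-RIP, against 23.2 and 17.8 CPM in the inputs. SMG9 (1.48, adjusted p = 0.0405 by edgeR) and SMG5 (1.27, adjusted p = 0.0149) also passed. However, SMG9 rests on 7 counts in input A and 5 in input B. In No.10-3 over vehicle, 0 genes of these lists passed, and the values that lay farthest from 0 were SMG9 at -0.98, CLK4 at -0.71 and CLK1 at -0.61, SNRNP70 at -0.62 and ACIN1 at -0.61, and SRSF10 at -0.37 and SRSF9 at 0.27.

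**Figure D5:**
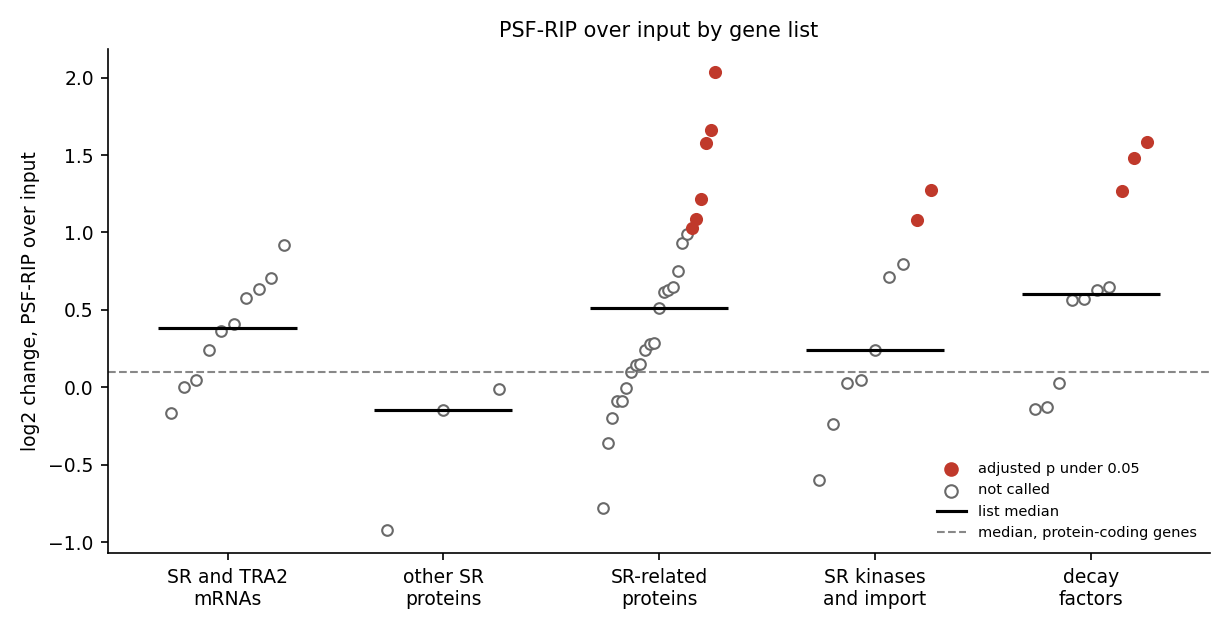
Log2 change of PSF-RIP over input for each gene of 5 lists (points, red where the adjusted p is under 0.05) with the list median (bar). The 10 SR and TRA2 mRNAs have a median of 0.38 and 0 red points, and the 25 SR-related proteins a median of 0.51 and 6 red points.

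The mean profile of the 10 mRNAs over the 5 libraries, as log2 CPM centred on each gene's mean, was 0.40 in vehicle PSF-RIP, -0.13 and 0.085 in No.10-3 PSF-RIP, and -0.13 and -0.23 in the inputs. Among the 5 other genes with the smallest Euclidean distance to it over these 5 libraries were GRHL1 (0.08), FUBP3 (0.13), NONO (0.14) and TBRG1 (0.15). NONO, the DBHS partner of PSF, stood at 140 and 160 CPM in No.10-3 PSF-RIP and 208 CPM in vehicle PSF-RIP, against 156 and 138.5 CPM in the inputs. Of the 10 themselves, SRSF7 was nearest (0.18, rank 9 of all tested genes) and TRA2B farthest (0.67, rank 1519). Each of the 10 is part of the mean it is measured against, so these distances and ranks are partly set in advance.

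Some reads cannot be placed with certainty. SRSF2 overlaps MFSD11 and SRSF4 overlaps MECR by their positions in RefSeq on GRCh38.p14, and the strand setting of the counting is not given in the sources used here. MFSD11 had 33 to 93 counts per library and MECR 9 to 73, against 65 to 633 for SRSF2 and 32 to 273 for SRSF4. Over the 10, log2 change in PSF-RIP over input and log2 gene length had a Pearson's r of -0.54 and a Spearman's rho of -0.49, across genes that share their libraries. Over tested protein-coding genes the median log2 change was -0.61 for the 653 genes of up to 1 kilobase and 0.06 to 0.24 in the 5 classes of longer genes, and the shortest of the 10, SRSF5, has 1651 bases.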

How the data were processed

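Per the file headers, the table the authors deposited gives each Entrez gene a count of reads, a length in bases and an FPKM for the 5 libraries. The submitters' processing notes name TopHat2 2.1.0, Bowtie2 2.2.6, Bowtie and hg19, with no role for any. The counter, its strand setting and its annotation are not stated there. Per the labels' protocols the kit was TruSeq Stranded. The counts were used as raw and whole, the lengths for levels per kilobase, and the 5 FPKM columns not at all.

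A gene entered a fit if its mean over the fitted libraries reached 1 CPM. Counts were scaled with TMM and tested with edgeR 4.0.16 (R 4.3.3; glmQLFit, glmQLFTest, Benjamini-Hochberg over all tested genes, threshold 0.05). PSF-RIP was compared with input in 1 fit of all 5 libraries with 3 groups and 2 residual degrees of freedom, and No.10-3 with vehicle in the 3 PSF-RIP libraries with 1. SE is the log2 change divided by the square root of F. Log2 CPM used a prior count of 2. The 10 mRNAs, the lists and the tests were chosen with earlier results of these data known. From the other lists, called genes were named, at most 6 per direction, or else the 2 farthest from 0; genes given beyond these were chosen after their values were seen. On simulated data for PSF-RIP over input (13321 genes), 70 of 100 genes changed by 2 on the log2 scale and 88 of 100 changed by 3 were recovered, and for No.10-3 over vehicle (13766 genes) 27 and 70 of 100. Among unchanged genes 13 and 3 were called. Changes smaller than 2 were not simulated, so recovery at the smaller sizes seen for the 10 mRNAs is not known. Kinds of RNA came from RefSeq, matched on Entrez ID for 23696 genes. DESeq2 1.42.0, other scalings and filters, removal of the length trend and each left-out library were alternatives. Rows without a symbol (1962 genes, 0.110% to 0.504% of counts) have an Entrez ID and were kept. One of the 5 genes with the profile nearest to the 10 is not reported here.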

Additional observations from a re-analysis of the deposited data

How the results depend on the processing

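No paired analysis was possible because the labels number no input library, the 2 inputs are 1 of each treatment and their columns are not named for it, and vehicle PSF-RIP is 1 library. PSF-RIP over input depends on the scaling: by library totals alone all 10 SR and TRA2 mRNAs passed in the combined, vehicle and No.10-3 comparisons, with 11220, 9720 and 11524 genes called higher and 54, 50 and 53 lower. SRSF3 (2.35) and TRA2B (2.19) in the combined comparison, TRA2B (2.204) with vehicle, and SRSF1 (2.24), SRSF3 (2.14) and TRA2B (2.17) with No.10-3 then turned positive. DESeq2 called 985, 669 and 307 genes higher in those comparisons and, with No.10-3, 576 lower. With the inputs summed, 131, 117 and 16 genes were called higher and 803, 473 and 314 lower. Without the vehicle library 576 genes were called higher and 829 lower in the combined comparison. In the vehicle comparison, 0 of the 10 were called under DESeq2, upper-quartile factors, a mean of 5 CPM or summed inputs. Leaving out 1 No.10-3 or input library gave 0 to 2 of the 10 called in the combined comparison (genes higher 68 to 2679, lower 555 to 2887), 0 to 3 with vehicle (48 to 2475, 284 to 2520) and 0 with No.10-3 (12 to 2035, 222 to 2039), the low counts without input B. The causes were not tested. Values near 0 changed sign under other settings, none of them past the threshold. In the combined comparison, SRSF3 stood at 0.042 without a filter and at -0.22 to 0.085 with 1 library left out. SRSF1 stood at -0.020 with a mean of 5 CPM, -0.054 with the length trend removed, -0.017 with summed inputs, -0.0016 with PSF-RIP as 1 group and -0.15 (-0.145) to 0.28 (0.277) with 1 library left out (-0.08 without No.10-3 replicate 2 and -0.13 without vehicle). SRSF3 with vehicle stood at -8e-04 with the length trend removed. With No.10-3, TRA2A stood at -0.042 with upper-quartile factors, -0.060 with DESeq2, -0.058 with a mean of 5 CPM, -0.034 with protein-coding genes only (a setting chosen after seeing the data) and -0.11 with the length trend removed, and SRSF7 at -0.050 in that last setting. With 1 library left out, the No.10-3 values ran from -0.22 to 0.25 for TRA2A, -0.36 to 0.11 for SRSF1, -0.30 to 0.59 for SRSF11 and -0.030 to 0.62 for SRSF2. In No.10-3 over vehicle, where leaving out a No.10-3 replicate leaves 1 library against 1 and no test, SRSF4 ran from -0.19 to 0.014, SRSF11 from -0.76 to 0.10 and TRA2B from -0.22 to 0.10. Removal of the length trend called 19 genes lower there, none of them among the 10. A group left with 1 library was assumed to vary like the others.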
